A study of Homo sapiens with 4 samples.

Results

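Lysosomal membrane proteins and hydrolases were followed on arrays of human neuroendocrine tumour cells after siRNA against DAXX, a chaperone of histone H3.3. The set held 32 named genes, chosen by gene symbol. Of these, 31 had a probe set that the platform annotation gave to that symbol alone, out of 19775 genes measured in all. The remaining gene, GLB1, shared its probe set with a neighbouring gene and was left out. For a gene with several probe sets, values are those of the probe set whose average on the 4 arrays was highest. All 31 genes had a mean above 4.85 on the log2 scale, the level below which genes were left out of the tests, and 14648 genes did so in all. SCARB2 was singled out with its values known, so its knockdown values are given as a description.

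The cells were QGP1, from a neuroendocrine tumour of the pancreas, and NCI-H727, from one of the bronchus; both are established lines. Each line gave 1 array of control cells (DAXX-NC), electroporated with a universal negative control siRNA, and 1 array of knockdown cells (DAXX-KD), electroporated with siRNA against DAXX. The final siRNA concentration was 50 nM in every group, and the labels name 2 DAXX siRNAs without saying whether they were mixed. The source field calls both NCI-H727 samples QGP1 and the description field calls all 4 samples ALDH high QGP1 cells, so the groups here follow the sample titles. Whether cells were sorted by ALDH before the RNA was taken is not given in the sources used here. No group had a second array, so differences within a line have no replicate check. The number of arrays limits the precision of every value.

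The arrays of different lines correlated at 0.915 to 0.925 over all probe sets, below the 0.995 within QGP1 and the 0.992 within NCI-H727. The targeted gene DAXX went from 8.52 to 6.56 in QGP1 and from 7.35 to 6.14 in NCI-H727. All 8 annotated neuroendocrine markers passed the filter, at unequal levels. Chromogranin A (CHGA) lay between 11.14 and 12.27 on the 4 arrays, and SYP between 5.89 and 6.32. NCAM1 read 8.28 and 8.38 in QGP1 and 5.77 and 5.62 in NCI-H727. The leukocyte marker PTPRC was at most 3.68, under the filter level, but 4 of 7 macrophage and leukocyte markers passed it. The brightest of them, LYZ, read 6.85 and 7.04 in QGP1 and 8.80 and 8.90 in NCI-H727. Of 8 fibroblast and endothelial markers 5 passed. Of these, 4 lay below 0 in QGP1 (DAXX-KD minus control), with a median of -0.04 over the 5. PECAM1, the 1 above 0, went from 5.74 to 6.80 in QGP1 on its brightest probe set, 2.08-fold higher. In NCI-H727 it went from 5.43 to 5.64. Its 2 other probe sets above the filter level differed by -0.19 and 0.55 in QGP1 and by 0.22 and 0.19 in NCI-H727. The part of PECAM1 in the results below was not tested.

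Lysosomes break down proteins, glycans and lipids with hydrolases that work in an acid lumen. A proton pump makes the lumen acid, heavily glycosylated membrane proteins line it, and small lumenal cofactors present lipids to the enzymes. The transcription factors TFEB and TFE3 bind an E-box element shared by many lysosomal genes and raise their transcription when nutrients are short. In endocrine cells lysosomes also take up surplus secretory granules.

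SCARB2 encodes LIMP-2, a membrane protein that carries a lipid-degrading enzyme to the lysosome and can conduct cholesterol through its membrane. On the probe set with the highest mean, 224983_at, SCARB2 read 12.44 in control and 11.14 in DAXX-KD QGP1, and 11.90 in control and 9.98 in DAXX-KD NCI-H727. Both knockdown arrays therefore lay below both control arrays. The difference, DAXX-KD minus control, was -1.30 in QGP1, which left 40.7% of the control signal. It was -1.92 in NCI-H727, which left 26.4%. Each array read RNA pooled from many cells, so fewer cells expressing a gene and less RNA per cell cannot be told apart. SCARB2 held rank 17 from the lowest of 14648 genes in each line.

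The other SCARB2 probe sets were lower in both knockdown arrays too, by very unequal amounts. Probe set 201646_at went from 9.03 to 7.44 in QGP1 and from 8.86 to 6.70 in NCI-H727, a difference of -1.59 and -2.16. Probe set 201647_s_at went from 7.93 to 6.99 and from 8.10 to 7.05, or 1.92-fold and 2.06-fold lower. The dimmest, 215754_at, went from 5.64 to 5.54 and from 5.25 to 5.15, a difference of -0.10 in both lines. So the brighter 3 probe sets showed the lower SCARB2 signal in each line, and the size of the difference depended on the probe set. Over all genes with several probe sets above the filter level, the SD of the difference among a gene's probe sets was 0.202 for QGP1 and 0.275 for NCI-H727.

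**Figure D1:**
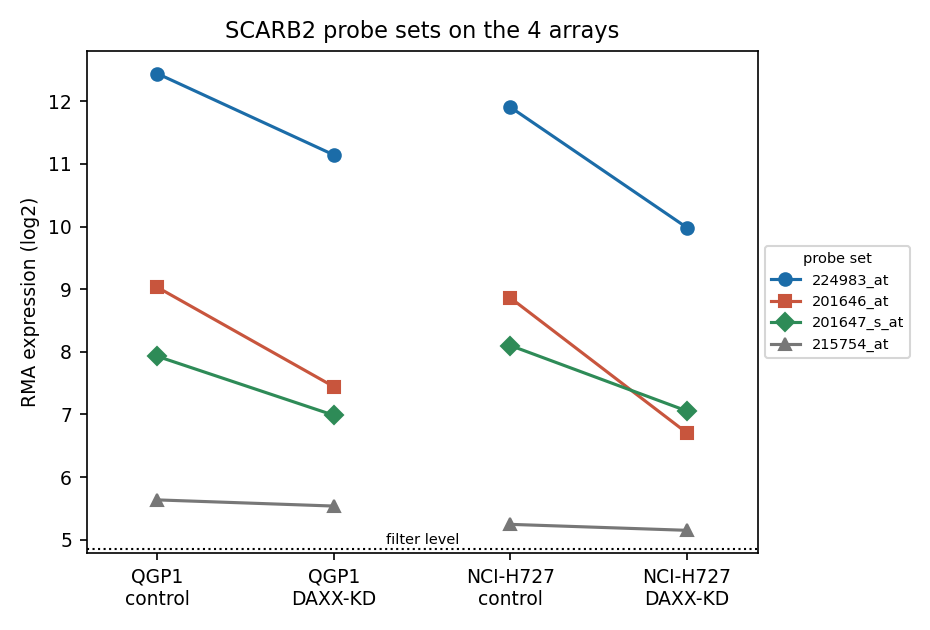
RMA expression (log2) of the 4 SCARB2 probe sets on the 4 arrays; lines join the control and DAXX-KD array of a cell line, and the dotted line marks the filter level of 4.85. The probe sets 224983_at, 201646_at and 201647_s_at are lower in DAXX-KD than in control in both lines, while 215754_at differs by -0.10.

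The annotated start of SCARB2 is preceded by a very GC-rich stretch, shown because this gene had the largest differences of the set. The 250 bases before the start (RefSeq, GRCh38.p14, chr4:76213825-76214074, minus strand) hold 80.8% G and C, against a median of 58.0% over all promoters of the table. They hold no match to the E-box CACGTG described further on.

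SCARB2: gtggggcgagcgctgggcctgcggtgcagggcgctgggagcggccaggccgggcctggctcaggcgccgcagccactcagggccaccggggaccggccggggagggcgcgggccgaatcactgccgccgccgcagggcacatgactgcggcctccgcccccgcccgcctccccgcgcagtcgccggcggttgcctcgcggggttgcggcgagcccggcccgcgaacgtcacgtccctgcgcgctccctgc

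Apart from SCARB2, none of the 31 genes differed by 2-fold in either line on the probe set that stands for it. At least 2-fold lower was 1 of 31 genes in QGP1, where 0.232% of all genes were, and the same 1 of 31 in NCI-H727, where 1.32% of all genes were. That gene was SCARB2, singled out with its values known, so these shares are no result about the set. Without SCARB2, 0 of 30 genes were at least 2-fold lower in either line, and 1 of 30 at least 1.5-fold lower in each. At least 1.5-fold lower were SCARB2 and GAA in QGP1 (2 of 31; 1.32% of all genes) and SCARB2 and GM2A in NCI-H727 (2 of 31; 4.96% of all genes). On the probe sets that stand for the genes, no member was at least 1.5-fold higher in either line. Of all genes, 1.74% were in QGP1 and 1.6% in NCI-H727. For 2-fold higher the shares of all genes were 0.259% and 0.177%. The median difference of the 31 genes was 0.09 in QGP1 and 0.003 in NCI-H727, beside 0.02 for all genes in each line. Smaller than the SD between probe sets of a gene were 16 of 31 differences in QGP1, beside 68.1% over all genes, and 23 of 31 in NCI-H727, beside 70%.

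**Figure D2:**
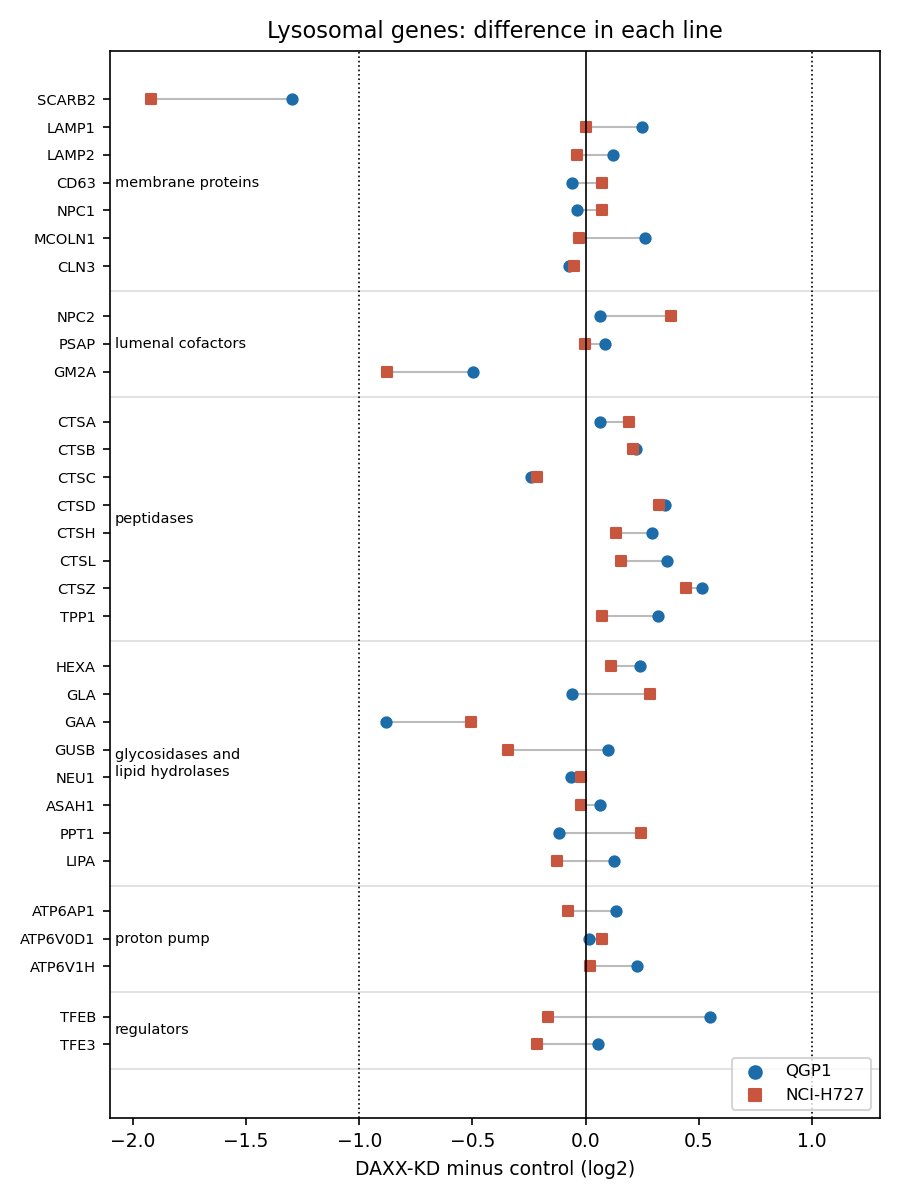
Difference DAXX-KD minus control (log2) of the 31 lysosomal genes by role, with QGP1 as circles and NCI-H727 as squares; 1 array per condition, dotted lines at 2-fold. SCARB2 is the 1 gene past the lower 2-fold line in both lines, GM2A and GAA follow, and the peptidases other than CTSC lie above 0 in both.

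GM2A, the activator protein that lifts ganglioside GM2 out of the membrane for hydrolysis, was lower in both knockdown arrays. It went from 8.55 to 8.05 in QGP1 and from 8.33 to 7.45 in NCI-H727, which is 1.41-fold and 1.84-fold lower. Its next brightest probe set, 35820_at, differed by -0.51 and -0.70, and the dim 235678_at by -0.64 and -0.50. The remaining 3 probe sets above the filter level were lower in QGP1, by -0.02 to -0.40, but differed by 0.04 to 0.34 in NCI-H727. In NCI-H727 the sign of GM2A therefore rests on 3 of 6 probe sets.

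GAA, the acid alpha-glucosidase that degrades glycogen in the lysosome, was lower in both lines on its single probe set. It went from 8.30 to 7.42 in QGP1 and from 7.08 to 6.58 in NCI-H727. That is 1.84-fold and 1.42-fold lower. GAA held rank 52 from the lowest of 14648 genes in QGP1 and rank 989 in NCI-H727, so it stood further out in QGP1.

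The remaining lumenal cofactors, the saposin precursor PSAP and the cholesterol-binding NPC2, were not lower together. PSAP differed by 0.09 in QGP1 and by -0.004 in NCI-H727. NPC2, which hands cholesterol to NPC1, went from 10.15 to 10.22 in QGP1 and from 10.76 to 11.13 in NCI-H727, a difference of 0.06 and 0.38.

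Among the 8 peptidases of the set, small differences above 0 prevailed in both lines. Of the 8, 7 lay above 0 in QGP1 and the same 7 in NCI-H727, where 53.5% and 52.5% of all genes lay above 0. Their median difference was 0.31 in QGP1 and 0.17 in NCI-H727. The 7 also lay above 0 in both lines after a second quantile normalization and after intensity-dependent centring. With all probe sets of a gene averaged, 8 lay above 0 in QGP1, with a median of 0.19, and 7 in NCI-H727, where CTSC joined them and CTSB no longer lay above 0. Without x_at and s_at probe sets 5 peptidases remained, of which 4 lay above 0 in each line, and the median in QGP1 was 0.06. On the probe set that stands for it, each of the 8 differed by under 1.5-fold in both lines. Probe set 225646_at of CTSC was 1.53-fold higher in QGP1.

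Peptidases outside the set lay on both sides of 0. Of 7 further lysosomal peptidases past the filter, grouped after their values were seen, 5 lay above 0 in QGP1 and 3 in NCI-H727, with 2 above 0 in both, CTSK and SCPEP1. The asparaginyl endopeptidase LGMN differed by -0.33 and -0.10, and cathepsin O (CTSO) by -0.39 and 0.22. Cathepsin S (CTSS) differed by 0.70 in QGP1 and by -0.04 in NCI-H727. The medians of the 7 were 0.11 and -0.03.

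CTSZ, the carboxypeptidase cathepsin Z, differed most among them. It went from 9.17 to 9.68 in QGP1 and from 10.29 to 10.73 in NCI-H727, or 1.43-fold and 1.36-fold higher. Its dimmer probe set 212562_s_at differed by -0.15 and 0.35, so the QGP1 direction was not shared by both probe sets. CTSD, the aspartic protease cathepsin D, had a single probe set, with differences of 0.35 and 0.33.

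Cathepsin L (CTSL) differed by 0.36 and 0.16, cathepsin H (CTSH) by 0.29 and 0.13, and the tripeptidyl peptidase TPP1 by 0.32 and 0.07. Without x_at and s_at probe sets TPP1 differed by 0.02 in QGP1. The cysteine protease CTSB differed by 0.22 and 0.21, and its second probe set, 200838_at, by 0.25 and 0.31. Its 3 dimmer probe sets lay between -0.10 and -0.01 in QGP1 and between -0.34 and -0.07 in NCI-H727. CTSA, which both trims peptides and protects NEU1 and beta-galactosidase, differed by 0.06 and 0.19.

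CTSC, the dipeptidyl peptidase that activates granule proteases, was the 1 peptidase below 0, and its probe sets disagreed. The brightest, 201487_at, went from 11.22 to 10.98 in QGP1 and from 11.49 to 11.27 in NCI-H727. Probe set 225646_at went the other way, from 9.56 to 10.17 and from 9.53 to 10.01, and 225647_s_at differed by 0.36 and 0.28. The direction of CTSC is therefore not settled by these arrays.

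Glycosidases and lipid hydrolases other than GAA stayed within 0.35 of their controls. GUSB, beta-glucuronidase, read 0.10 above its control in QGP1 and differed by -0.34 in NCI-H727. GLA, alpha-galactosidase A, differed by -0.06 and 0.28, and the palmitoyl thioesterase PPT1 by -0.12 and 0.24. HEXA, the alpha subunit of beta-hexosaminidase, which works with GM2A on ganglioside GM2, differed by 0.24 and 0.11. The sialidase NEU1 differed by -0.06 and -0.02, acid ceramidase (ASAH1) by 0.06 and -0.02, and acid lipase (LIPA) by 0.12 and -0.13. GAA and NEU1 were below 0 in both lines, although NEU1 turned in NCI-H727 after a second quantile normalization, to 0.09. Other values moved with the choice of probe sets. With averaged probe sets HEXA differed by 0.02 and -0.02, and LIPA by -0.11 in QGP1. Without x_at and s_at probe sets ASAH1 differed by 0.39 in NCI-H727.

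The other membrane proteins of the set, which share the limiting membrane with SCARB2, lay close to their controls. LAMP1 went from 11.90 to 12.16 in QGP1 and from 12.12 to 12.13 in NCI-H727. LAMP2 differed by 0.12 and -0.04, the tetraspanin CD63 by -0.06 and 0.07, and the cholesterol exporter NPC1 by -0.04 and 0.07. MCOLN1, the calcium-releasing channel mucolipin, differed by 0.26 and -0.03, and CLN3, a lysosomal membrane protein lost in a juvenile form of Batten disease, by -0.07 and -0.05. These 6 genes lay between -0.07 and 0.26, while SCARB2 differed by -1.30 and -1.92.

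The LAMP2 probe set with the lowest mean stood apart from the others of that gene. Probe set 226671_at went from 7.21 to 7.16 in QGP1. In NCI-H727 it went from 4.97 to 3.87, and the last value is below the filter. The 2 other additional LAMP2 probe sets differed by 0.10 to 0.15 in both lines. The platform annotation gives 226671_at to LAMP2 without naming a transcript form.

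The 3 proton pump genes were within 0.25 of their controls. ATP6AP1, an accessory subunit, differed by 0.13 and -0.08. ATP6V0D1, of the membrane sector, differed by 0.02 and 0.07, and ATP6V1H, of the catalytic sector, by 0.23 and 0.02. With averaged probe sets ATP6V1H differed by -0.07 and -0.11.

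The regulator TFEB gave the highest QGP1 difference of the set and was not higher in NCI-H727. It went from 6.07 to 6.63 in QGP1, 1.47-fold higher, and from 7.28 to 7.12 in NCI-H727. Its second probe set, 221866_at, differed by 0.25 and -0.02. TFE3 differed by 0.06 and -0.22, and its second probe set above the filter level, 206649_s_at, by -0.05 and 0.02. On the brightest probe sets both factors thus lay above 0 in QGP1 and below 0 in NCI-H727. The second TFE3 probe set had the opposite signs. With 1 array per condition the difference between the lines' responses could not be tested.

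In both lines together, 12 of 31 genes were above 0 in each line (28.8% of all genes), 6 were below 0 in each (22.6%) and 13 had opposite signs (48.1%). Above 0 in QGP1 were 21 of 31 genes. In NCI-H727 16 of 31 were, and 20 of 31 after a second quantile normalization, when the count over all genes went from 7687 of 14648 to 8549 of 14651.

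**Figure D3:**
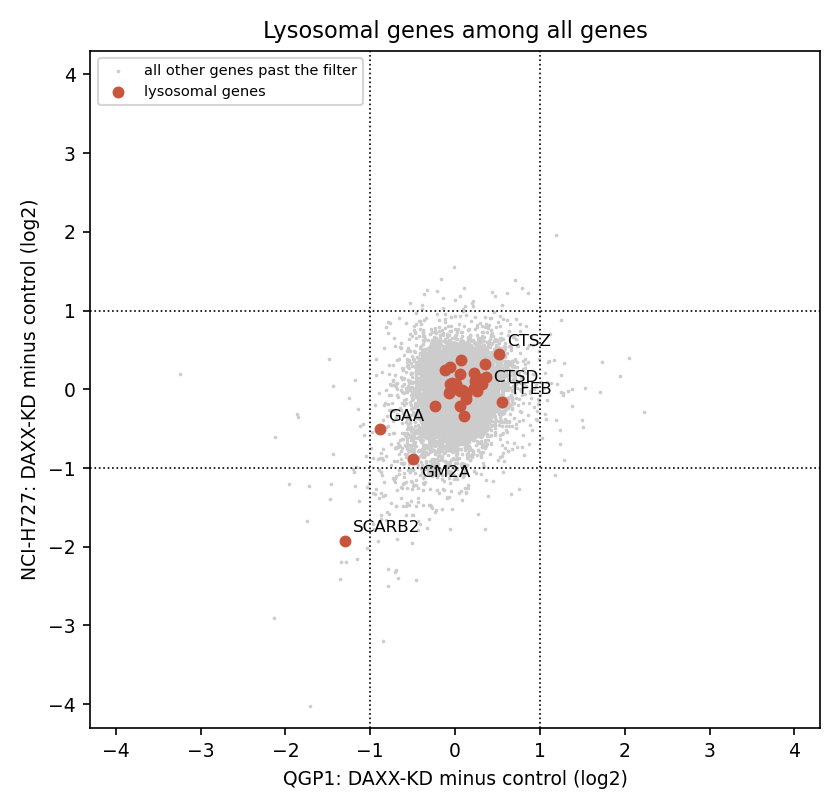
Difference DAXX-KD minus control (log2) in QGP1 (x axis) and NCI-H727 (y axis) for the 31 lysosomal genes and all other genes past the filter; dotted lines mark 2-fold. SCARB2, at -1.30 and -1.92, lies in the lower left corner outside the main cloud, GM2A and GAA lie at its lower left edge, and the other lysosomal genes lie within it.

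All 4 arrays were then fitted together in limma, with terms for treatment and cell line, so that the lines served as repeats of the knockdown. It called none of the 31 genes at an adjusted p of 0.05, and 0% of all genes. At an unadjusted p under 0.05 it held 5 of 31 members and 6.92% of all genes. Of the members 2 were higher (2.8% of all genes) and 3 lower (4.12%), and without SCARB2, 2 of 30 were higher and 2 lower. The 5 were SCARB2 (-1.61, SE 0.19), GM2A (-0.69, SE 0.15), GAA (-0.69, SE 0.15), CTSZ (0.48, SE 0.13) and CTSD (0.34, SE 0.13). Their adjusted p-values in limma were 0.374, 0.506, 0.498, 0.567 and 0.703. All 5 had the same sign in both lines, but the fit takes the difference between the lines' responses as its residual spread. A gene with opposite signs could therefore not reach this level, and the shared sign is no separate support. When the limma prior followed intensity, SCARB2 passed, at an adjusted p of 0.03, as 1 of 5 genes in all. SCARB2 was singled out with its knockdown values known, so this call is part of the description and no support. Over all alternatives its adjusted p in limma ranged from 0.03 to 1, the last without the cell line block.

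TFEB and TFE3 recognise the E-box CACGTG, best when it lies between GT and AC, so the promoters of the set were searched for these letters. The RefSeq promoter table (GRCh38.p14) gives 250 bases before to 50 after a gene's start and held 26 of the 32 genes. All 3 forms searched are palindromes, so both strands are covered, and each longer form contains the shorter ones. CACGTG was found in 9 of 26 genes, against 8.77% of all genes in the table and 12.2% of those past the expression filter. TCACGTGA was found in 6 of 26, against 1.18% and 2.03%. The full form, with GT before and AC after the core, was found in 2 of 26, GAA and MCOLN1, against 0.421% and 0.795%.

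The windows below show the 9 longer matches of these 6 genes, with the match in capitals and 30 bases in all, written along the gene's strand. They are shown because they hold the element that TFEB and TFE3 are known to bind. For CLN3, with 2 starts in the table, the distance is from the start listed first. The coordinates are those of GRCh38.p14, in the order of the lines: chr17:80101493-80101522 and chr17:80101538-80101567 (plus strand), chr19:7522571-7522600 and chr19:7522598-7522627 (plus), chr13:113297199-113297228 and chr13:113297226-113297255 (plus), chr20:45891298-45891327 (plus), chr16:67481199-67481228 (minus) and chr16:28492058-28492087 (minus).

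GAA, 78 bases before the start: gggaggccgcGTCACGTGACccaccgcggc
GAA, 33 bases before the start: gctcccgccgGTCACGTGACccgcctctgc
MCOLN1, 42 bases before the start: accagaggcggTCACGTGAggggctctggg
MCOLN1, 16 bases before the start: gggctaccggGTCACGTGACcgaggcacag
LAMP1, 29 bases before the start: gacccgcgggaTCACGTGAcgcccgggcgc
LAMP1, 2 bases before the start: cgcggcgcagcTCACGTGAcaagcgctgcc
CTSA, 26 bases before the start: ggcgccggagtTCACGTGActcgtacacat
ATP6V0D1, 60 bases before the start: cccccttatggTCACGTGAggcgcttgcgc
CLN3, 2 bases before the start: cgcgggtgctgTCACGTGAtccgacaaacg

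GAA, MCOLN1 and LAMP1 each carried a pair of longer matches, and GAA carried the full 10 bases in both. LAMP1 held 6 matches to CACGTG in its window, the most of the set. The remaining carriers, CD63, CTSD and NEU1, had the 6-base core alone. A match is a description of the letters and not a site of binding.

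The genes with the core did not differ from their controls in a common direction. The 9 carriers had a median difference of 0.02 in QGP1, with GAA lowest at -0.88 and CTSD highest at 0.35, and of 0.003 in NCI-H727, from -0.51 to 0.33. The 16 genes with a promoter in the table, no match and a value on the arrays had medians of 0.08 and -0.003. GLB1, left out for its shared probe set, is not among them. Among the carriers of the 10-base form, GAA was lower and MCOLN1 differed by 0.26 and -0.03. GAA held that form in both of its matches and MCOLN1 in 1 of 2.

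**Figure D4:**
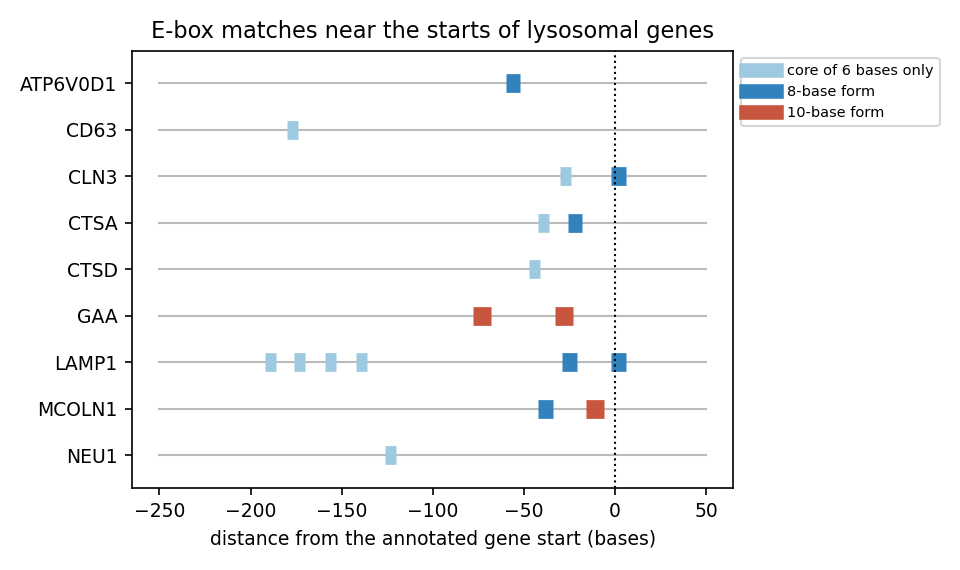
Matches to the E-box within 250 bases before and 50 after the annotated start of the 9 lysosomal genes that hold one; x axis, distance from the start in bases, with bars at the 6-base core, its 8-base form and its 10-base form. GAA and MCOLN1 hold the 10-base form, and LAMP1 holds 6 matches.

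The lines themselves differed in lysosomal genes about as often as in other genes. The line coefficient of the same limma fit, over 2 arrays per line, passed at an adjusted p of 0.05 for 14 of 31 members, against 48.3% of all genes. Of these, 6 were higher in NCI-H727 (23.2% of all genes) and 8 were lower (25.1%). For 26 of 31 members the arrays of one line did not overlap those of the other, as for 77.2% of all genes. These shares are near the background and are no result about the set.

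Among the peptidases, CTSB and CTSZ were higher in NCI-H727 by over 2-fold, 2 of 31 members against 10.6% of all genes. CTSB read 9.24 and 9.46 in QGP1 and 10.66 and 10.87 in NCI-H727, a 2.66-fold difference (log2 1.41, SE 0.13, limma adjusted p = 0.000791). All 4 of its other probe sets were higher in NCI-H727 too, by 0.47 to 1.48. CTSZ read 9.17 and 9.68 against 10.29 and 10.73, 2.12-fold higher (1.09, SE 0.13). Its dimmer probe set 212562_s_at was higher by 0.16 between the control arrays and by 0.65 between the knockdown arrays. CTSD (0.88) and the cholesterol transporters NPC1 (0.79) and NPC2 (0.76) were also higher in NCI-H727. TFEB was higher by 0.85, with 6.07 and 6.63 in QGP1 and 7.28 and 7.12 in NCI-H727.

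Acid lipase LIPA, GAA and MCOLN1 were lower in NCI-H727 by over 2-fold, 3 of 31 members against 11.8% of all genes. LIPA read 10.72 and 10.85 in QGP1 and 9.76 and 9.64 in NCI-H727, 2.12-fold lower (-1.09, SE 0.14). GAA read 8.30 and 7.42 against 7.08 and 6.58, 2.05-fold lower (-1.03, SE 0.15). MCOLN1 read 7.18 and 7.44 against 6.32 and 6.29, 2.01-fold lower (-1.01, SE 0.14). NEU1 (-0.68), PPT1 (-0.56), ATP6AP1 (-0.67) and ATP6V0D1 (-0.88) were lower as well. LAMP2 did not pass (-0.26, SE 0.13), whereas its probe set 226671_at differed by -2.24 between the control arrays and -3.29 between the knockdown arrays. That probe set was near or under the filter level only in NCI-H727.

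SCARB2 passed this test too, at -0.85 (SE 0.19, limma adjusted p = 0.0156), although its arrays overlapped between the lines. Its difference between lines was -0.54 over the control arrays and -1.16 over the knockdown arrays. Without treatment in the fit its adjusted p in limma was 0.372. Probe set 201647_s_at differed by 0.17 and 0.07 between the lines, so that a lower SCARB2 level in NCI-H727 controls was not seen at every probe set.

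**Figure D5:**
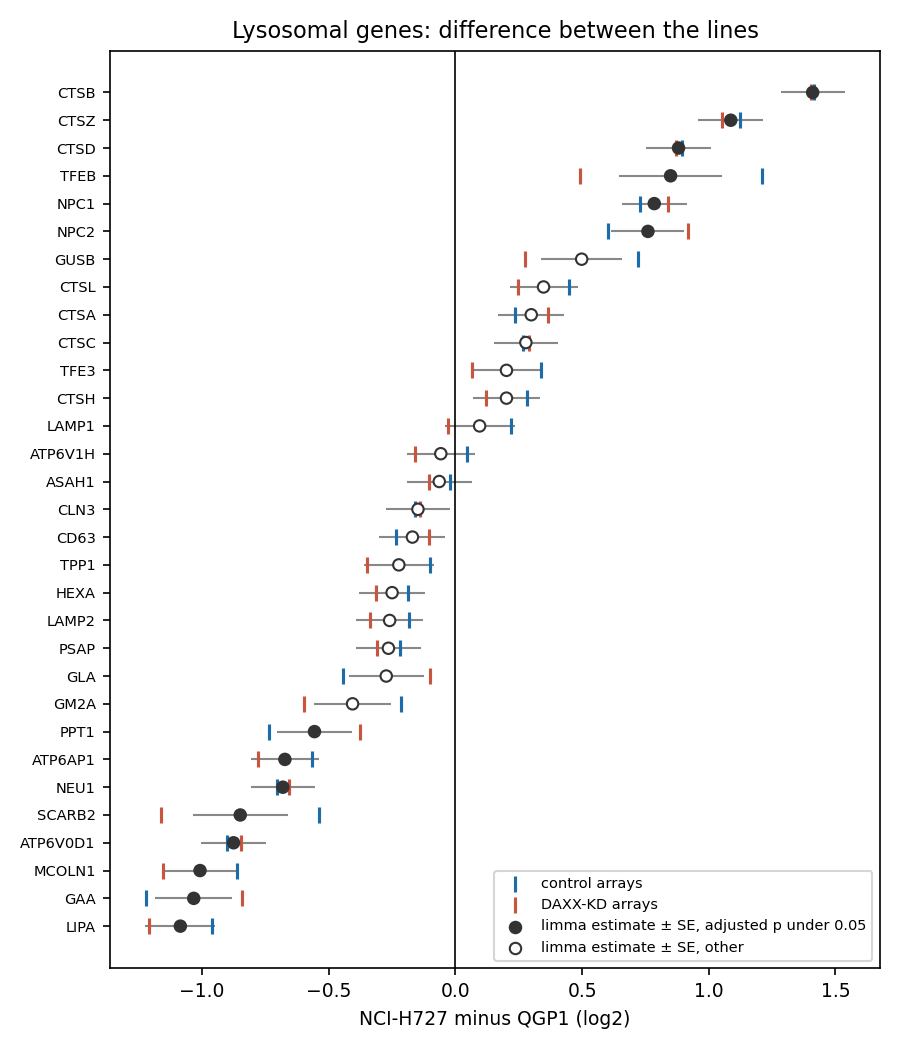
Difference NCI-H727 minus QGP1 (log2) of the 31 lysosomal genes from the limma fit, with its SE; filled circles have an adjusted p under 0.05, and ticks give the difference within the control pair and within the DAXX-KD pair of arrays. CTSB, at 1.41, is highest, LIPA, at -1.09, is lowest, and the ticks of SCARB2 lie at -0.54 and -1.16.

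Other genes of the lysosome, its pump, its sorting and its regulation were taken from lists. Of 36 further lysosomal hydrolases and membrane proteins past the filter, 0 were at least 2-fold different in QGP1 (of all genes, 0.259% were higher and 0.232% lower). In NCI-H727 1 was higher (0.177% of all genes) and 1 lower (1.32%). Their median was 0.05 in QGP1 and -0.08 in NCI-H727. In NCI-H727 11 of 36 lay above 0, beside 52.5% of all genes, and 19 of 36 with the mean of each gene's probe sets. In the limma fit of the knockdown 0 genes of these lists passed over all genes. At an unadjusted p under 0.05 there were 2 higher and 2 lower among these 36, 2 lower pump subunits and 1 higher autophagy gene, where 2.8% of all genes were higher and 4.12% lower.

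OSTM1, the partner of the lysosomal chloride transporter, was the higher gene. It went from 7.08 to 7.63 in QGP1 and from 6.76 to 7.83 in NCI-H727, or 1.47-fold and 2.09-fold, and its 2 other probe sets above the filter level were higher in both lines. SLC17A5, the sialic acid exporter, went from 9.05 to 7.88 in NCI-H727, 2.24-fold lower, and from 7.85 to 7.72 in QGP1. Its second probe set differed by -0.94 in NCI-H727 and -0.05 in QGP1. ACP2, lysosomal acid phosphatase, named after its values were seen, differed by -0.85 in QGP1 and by -0.90 in NCI-H727 on its single probe set above the filter level.

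The other 12 subunits of the proton pump had medians of 0.08 and -0.01, with 0 past 2-fold. Genes of enzyme sorting, such as the mannose 6-phosphate receptors, had medians of 0.07 and -0.04 over 26 genes, again with 0 past 2-fold. Genes that tie mTORC1 to the lysosome had medians of 0.09 and -0.003 over 17 genes, with 0 past 2-fold. The relatives of SCARB2 in the CD36 family were both measured. SCARB1 differed by 0.13 and 0.01. CD36, whose mean was under the filter level, went from 4.93 to 5.55 in QGP1 and from 3.86 to 4.29 in NCI-H727.

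Autophagy genes, whose products deliver cargo to lysosomes, lay above 0 in QGP1 for 25 of 28 genes, beside 53.5% of all genes, with a median of 0.14. In NCI-H727 14 of 28 lay above 0, beside 52.5%, with a median of -0.02. The counts moved with the choice of probe sets: with averaging 21 of 27 lay above 0 in QGP1 and 11 in NCI-H727, and without x_at and s_at probe sets 13 of 19 and 4, with a NCI-H727 median of -0.16. After a second quantile normalization 23 lay above 0 in QGP1 and 15 in NCI-H727, where the median was 0.06. WIPI1, a phosphoinositide-binding protein of early autophagosomes, went from 6.23 to 5.14 in NCI-H727 and from 8.21 to 8.31 in QGP1. Its second probe set differed by -0.42 in NCI-H727 and 0.02 in QGP1.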

How the data were processed

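The deposited table held log2 expression values that the authors made with RMA (the submitters' processing notes name affy 1.40.0 and R 3.0.3). Because RMA equalises the distribution of values between arrays, a value has meaning against the rest of its array. Differences of dim probe sets may be compressed, which was not tested. Of 54613 probe sets, 41091 were used, those with exactly 1 gene symbol in the platform annotation; 1801 with several symbols and 11721 without one were not. Tests ran on the 14648 genes whose mean reached 4.85, the 40th percentile over probe sets.

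Differences within a line (1 array per condition) were described by size, at 2-fold and 1.5-fold, with no p-value. A model of treatment and cell line was fitted to the 4 arrays with limma 3.58.1 in R 4.3.3. It had 1 residual and 4.18 prior degrees of freedom and gave two-sided moderated tests with Benjamini-Hochberg adjustment over all genes at 0.05. Its p-values measure only the spread between these arrays, and nothing in the labels says that cultures were repeated. The fit was checked on simulated data.

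The members and lists were chosen with earlier results of these data known. Named genes are all members, DAXX, and pathway genes past the filter and past 2-fold in a line. ACP2, SCARB1, CD36, the further peptidases and the genes of the closing section were named after their values were seen. So were the markers CHGA, SYP, NCAM1, PTPRC, LYZ and PECAM1. Alternatives were averaging each gene's probe sets, no x_at and s_at probe sets, no filter, a second quantile normalization, intensity-dependent centring, an intensity trend, and fits without cell line or treatment. The comparison of all SCARB2 probe sets was planned. Their use as further alternatives, and the line difference within each pair of arrays, were added after seeing the data.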

Additional observations from a re-analysis of the deposited data

How the results depend on the processing

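Each group held 1 array, so no array could be left out within a group. The labels give no replicate numbers; the arrays of a line were paired through the cell line term, with 1 residual degree of freedom. When all probe sets of a gene were averaged, the SCARB2 difference was -0.98 for QGP1 and -1.30 for NCI-H727. That left 0 members past 2-fold on the lower side in QGP1 and 1 past 1.5-fold in NCI-H727; the dim 215754_at enters that mean, and GM2A in NCI-H727 averaged -0.26 over its probe sets. By single probe sets SCARB2 differed by -1.59, -0.94 and -0.10 in QGP1 and, for 201647_s_at and 215754_at, by -1.04 and -0.10 in NCI-H727. Without x_at and s_at probe sets, which left 23 members, the median of the members was 0.016 in QGP1 and 0.071 in NCI-H727, and after a second quantile normalization it was 0.071 in NCI-H727; the cause was not tested. With a limma prior that follows intensity, 5 genes were called for the knockdown. SCARB2, singled out with its values known, was the 1 member among them (-1.61, SE 0.14), and the cause was not tested. Without the cell line block its SE was 0.52. Over the alternatives that recompute the differences within a line, 25 of 31 members kept their sign in QGP1 and 20 of 31 in NCI-H727; CTSC, at -0.24 and -0.22, turned to 0.19 and 0.06 with averaged probe sets. The main limma fit called 0 of all genes for the knockdown, and so did every alternative except the intensity trend. Outside that trend no member could therefore change its side of the threshold. The other members kept their side in 202 of 202 combinations of member and setting, which is no sign of stability. Their adjusted p-values in limma ranged from 0.252 to 1. For the line difference the side was the same in 201 of 209 combinations. Dim probe sets limit what these arrays show: differences near the filter level may be compressed, which was not tested.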

Other observations

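Some genes of the lists differed between the lines more than any member did. They were named after their values were seen, and the values are given without a test of the lists. LAMP3, a LAMP family protein of few cell types, read 8.76 and 8.42 in QGP1 and 3.99 on both NCI-H727 arrays, under the filter level. RRAGD, a Rag GTPase that brings mTORC1 to the lysosome, read 9.70 and 9.99 in QGP1 and 5.72 and 5.43 in NCI-H727. The lysosomal membrane protein TMEM106B read 10.95 and 10.99 against 8.81 and 8.66. CTSS, cathepsin S, read 6.75 and 7.45 in QGP1 and 5.06 and 5.02 in NCI-H727, and was 1.63-fold higher in DAXX-KD than in control QGP1.

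OPTN, an autophagy receptor, went from 8.93 to 7.96 in NCI-H727 and from 8.59 to 8.93 in QGP1. Its second probe set above the filter level differed by -1.02 and 0.58. ATP6V0A2, a proton pump subunit, went from 7.25 to 6.94 in QGP1 and from 8.22 to 7.40 in NCI-H727, and its 4 other probe sets above the filter level were lower in both lines.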
